A study of Mus musculus with 2 samples.

Results

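Endothelial cells (ECs) that carry Scgb3a1 RNA and few sinusoidal, arterial or metaphyseal genes made up 1858 of the 22598 ECs in 2 single-cell libraries of mouse bone, and 1857 of the 1858 came from the Dach1OE library. Members were chosen by the RNA in each cell. A member had to show at least 3 of 7 pan-endothelial genes (Cdh5, Pecam1, Kdr, Emcn, Tie1, Esam and Plvap), no Ptprc and at least 2 unique molecules (UMIs) of Scgb3a1. It also had to show under 3 of 6 sinusoidal genes (Stab2, Gpm6a, Dnase1l3, Il13ra2, F8 and Mrc1), under 2 of 5 arterial genes (Gja5, Sema3g, Stmn2, Fbln2 and Jag2) and under 2 of 5 metaphyseal genes (Ramp3, Ednrb, Pcdh17, Piezo2 and Tcim). The 2 libraries held 55783 cells after filtering. Every difference in Scgb3a1 between members and other cells follows from this choice and is given as a description.

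Scgb3a1 encodes a small secreted protein of the secretoglobin family, which is best known from secretory cells of the airway. Bone marrow is drained by wide, thin-walled sinusoids whose ECs take up molecules from the blood through scavenger receptors such as Stab2 and Mrc1. Blood reaches them from arteries through capillaries. Dach1 is a transcription factor known to promote the growth of coronary arteries.

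The Control library came from mice labelled Dach1OE +/f, which carry the overexpression allele and no Cre, and the Dach1OE library came from mice labelled Apj CreERT2 - Dach1OE +/f. All animals were C57BL/6 at postnatal day 30, and all were treated with Tamoxifen. Each library pooled 2 mice, and the labels give both sexes. The driver acts where Aplnr (Apj) is expressed when Tamoxifen is given, which per the study's methods was shortly after birth. Aplnr at day 30 therefore need not mark the cells in which the driver acted. The UMIs of Dach1 do not separate the transgene from the endogenous gene. Femurs and tibias without their epiphyses were digested with collagenase and crushed, and blood cells were depleted by lineage markers, CD45 and CD117. With 1 library per genotype there was no replicate check, and genotype and library cannot be told apart. Intervals below are 95% and cover counting error only.

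The deposited count tables held 28720 cell barcodes with 143986818 UMIs in Control and 32028 barcodes with 166999989 UMIs in Dach1OE. Members had a median of 2910 UMIs, against 2434 in the Dach1OE cells that met every other criterion and had 0 Scgb3a1 UMIs (Scgb3a1-zero cells), 3423 in Dach1OE sinusoidal-gated cells and 3063 in Control sinusoidal-gated cells. Sinusoidal-gated cells had at least 3 of the 6 sinusoidal genes and fell in neither the arterial nor the metaphyseal gate. The libraries shared 1049 barcodes. Scrublet, a doublet caller, marked 191 of the 1857 members (10.3%) and 368 of the 3607 Scgb3a1-zero cells (10.2%). Levels are given as CPM, the UMIs of a gene relative to all UMIs of the group. RNA of stromal and cartilage cells was present in every endothelial group: Col1a1 reached 8738 CPM in members, 14831 in Scgb3a1-zero cells and 5523 in Dach1OE sinusoidal-gated cells, and its part in the results below was not tested.

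The gene that defines the cells lies on chromosome 11 (GRCm38, chr11:49663610-49665118, + strand, ENSMUSG00000064057.12), between Flt4, which ends 10870 bases before it, and Cnot6, which lies 6384 bases after it on the - strand. Of its 2 annotated transcripts, Scgb3a1-201 has 493 bases in 3 exons, and its second exon, which is the third of Scgb3a1-202, holds 236 of the 312 coding bases. That exon (GRCm38, chr11:49664370-49664605, + strand, GENCODE) and the promoter are printed because Scgb3a1 is the gene on which the cells were selected. The promoter (RefSeq, GRCm38.p6, chr11:49663345-49663644, + strand) runs from 250 bases before to 50 bases after the start, and capitals mark the letters AGGAAG, a form of the GGAA core that ETS factors of endothelium can bind. They occur on the + strand at -88 and at +16 from the RefSeq start. Both strands were searched, and 35.4% of 32851 promoters of the same length hold these letters, so the match is a description only.
Scgb3a1 promoter: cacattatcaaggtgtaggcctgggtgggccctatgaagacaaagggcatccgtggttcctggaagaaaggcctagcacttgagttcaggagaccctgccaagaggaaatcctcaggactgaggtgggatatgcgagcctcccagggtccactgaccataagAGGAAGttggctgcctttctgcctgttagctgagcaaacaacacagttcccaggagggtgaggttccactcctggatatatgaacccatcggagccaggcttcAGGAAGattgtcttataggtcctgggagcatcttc
Scgb3a1-201 exon 2: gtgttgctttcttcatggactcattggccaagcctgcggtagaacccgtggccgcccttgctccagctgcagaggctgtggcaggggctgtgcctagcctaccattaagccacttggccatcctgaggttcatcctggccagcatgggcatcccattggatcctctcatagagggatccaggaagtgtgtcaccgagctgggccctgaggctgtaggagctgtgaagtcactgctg

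Scgb3a1 was rare in Control endothelium and frequent in Dach1OE endothelium. A UMI was found in 414 Control ECs (3.79%) and 3686 Dach1OE ECs (31.6%), and at least 2 UMIs in 38 (0.347%) and 2518 (21.6%). The member count is lower still, since the rule leaves out cells of the other gates. In Control 1 of 10937 ECs was a member (0.00914%), a cell with 3452 UMIs and 2 of Scgb3a1. In Dach1OE 1857 of 11661 ECs were members (15.9%, 15.3 to 16.6, Clopper-Pearson), a difference of 15.9 percentage points (15.3 to 16.6, Newcombe). The cells that meet the rule apart from Scgb3a1 (the same gate) were themselves more frequent in Dach1OE, at 53.1% of ECs against 17.9% in Control, while sinusoidal-gated cells were 15.8% against 51.5%. Within that gate members were 30.0% of the 6194 Dach1OE cells and 0.0509% of the 1963 Control cells.

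Between mice of the Dach1OE library the member share was alike. Cells were assigned to the female by Xist or to the male by 4 Y-linked genes. Members were 563 of 3603 female ECs (15.6%) and 444 of 2763 male ECs (16.1%). The other 850 members (45.8%) had neither or both kinds of RNA and were left out here. In Control they were 0 of 3561 female ECs, which allows a share of up to 0.0842%, and 1 of 2591 male ECs. The difference between the libraries was therefore present in either sex.

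Scgb3a1 UMIs in a member ranged from 2 to 40 with a median of 4 (quartiles 3 and 7). Exactly 2 UMIs were seen in 450 members and 10 or more in 251 (13.5%). Among Dach1OE cells of the same gate 3607 had none and 730 had 1. In Control the counts were 1942 cells with none, 20 with 1 and 1 with 2.

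**Figure D1:**
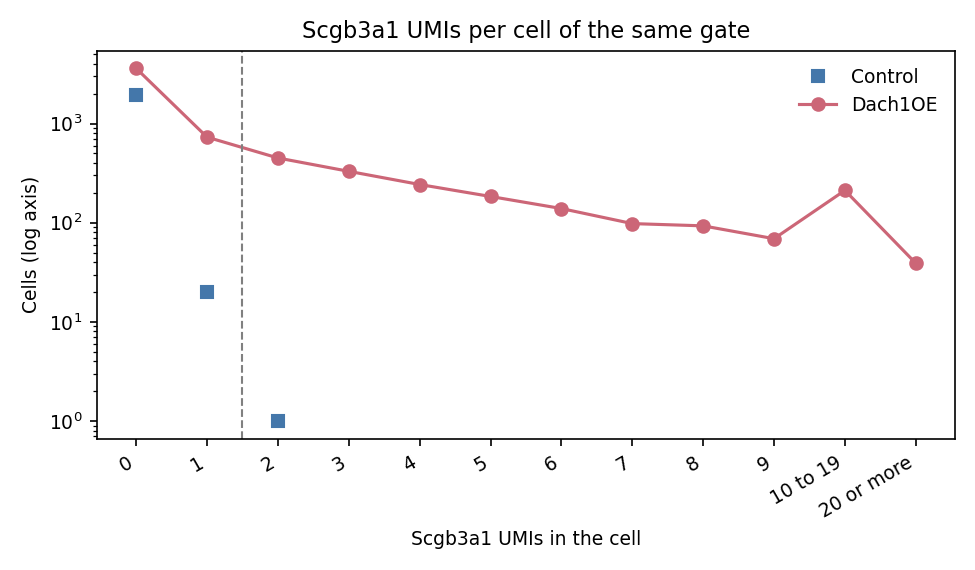
Number of cells (log axis) by Scgb3a1 UMIs in the cell, for ECs that meet the rule apart from Scgb3a1; the dashed line marks the minimum of 2 and the last classes, 10 to 19 and 20 or more, are wider than 1 UMI. Control cells end at 1 cell with 2 UMIs, whereas Dach1OE has 450 cells with 2 UMIs and 251 with 10 or more.

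Beyond the gate, Scgb3a1 RNA was raised in every endothelial kind of Dach1OE and stayed low outside the endothelium. Members summed to 1429.7 CPM (1402 to 1457), a level set by the rule. Dach1OE sinusoidal-gated cells had 358 (345 to 372), metaphyseal-gated cells 78.0 and arterial-gated cells 66.3. The matching Control levels were 15.4, 2.64 and 0 of 505 arterial-gated cells with a UMI. In both libraries, then, the sinusoidal gate had the highest level of these 3 gates.

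Cells that should lack Scgb3a1 gave the background. In Dach1OE it reached 3.67 CPM in stromal cells, 1.81 in cartilage cells and 3.69 in mural cells. After each cell was thinned to 1000 UMIs, Scgb3a1 was found in 78.9% of members (100% before thinning), 19.3% of Dach1OE sinusoidal-gated cells (34.1% before) and 0.380% of Dach1OE stromal cells (1.64% before), whose median depth was 4332 UMIs. Of Control sinusoidal-gated cells 5.47% had a UMI (308 of 5633) and 26 had at least 2, with a maximum of 3. The corresponding share of Control stromal cells was 0.598%, so a low level of Scgb3a1 in Control sinusoidal cells lay above the background.

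**Figure D2:**
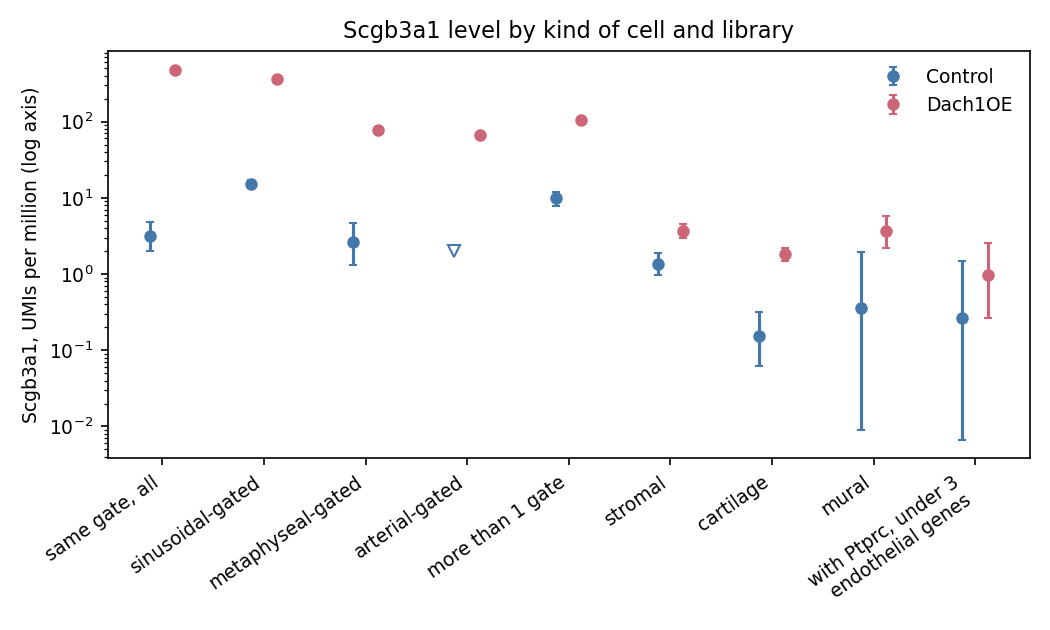
Scgb3a1 in CPM (log axis) by kind of cell in the Control and Dach1OE libraries, with 95% Poisson intervals; the open triangle is the upper limit for Control arterial-gated cells, which had no UMI. Every endothelial kind is higher in Dach1OE, and the stromal, cartilage and mural levels lie between 0.156 and 3.69.

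Within Dach1OE the share of Scgb3a1-positive cells peaked at an intermediate number of sinusoidal genes. At least 2 Scgb3a1 UMIs were found in 12.7% of cells with none of the 6 sinusoidal genes, in 37.2% with 1 and in 50.7% with 2 (48.3 to 53.2). The share then fell to 35.3% with 3, 19.8% with 4, 15.1% with 5 and 15.2% with 6. Median depth rose with the share from 2453 UMIs at none to 2935 at 2, and then against it to 4392 at 6, and its part was not tested. Control shares stayed between 0 and 0.901% at every number. Clca3a1, a chloride channel regulator that the rule did not use, rose from 136 CPM at none to 939 at 2 in Dach1OE, and it lay between 673 and 844 at 3 to 6. In Control, with almost no Scgb3a1, it also rose with the number, from 34.5 at none to 159 at 2 and 443 at 6.

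**Figure D3:**
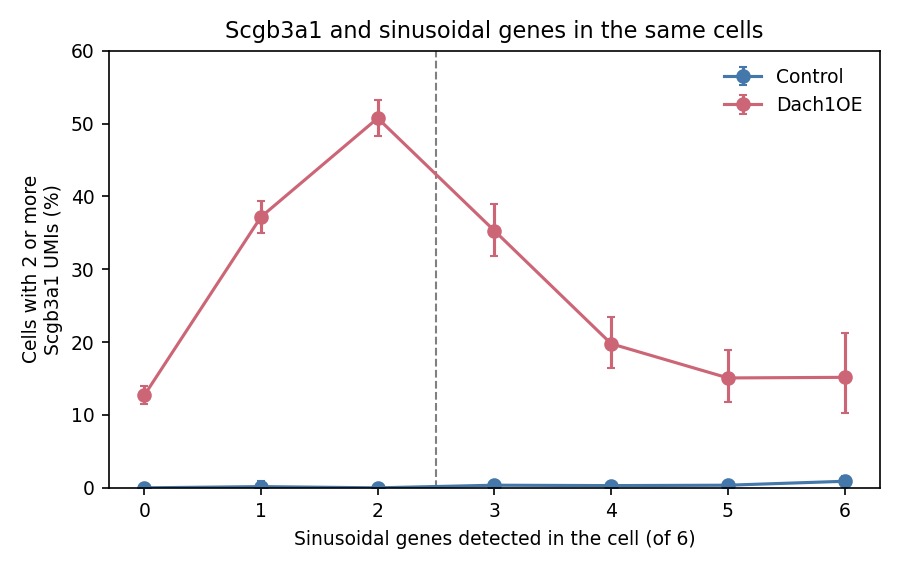
Share of ECs with at least 2 Scgb3a1 UMIs (%, 95% Clopper-Pearson intervals) by the number of the 6 sinusoidal genes detected, for ECs outside the arterial and metaphyseal gates. Cells left of the dashed line meet the rule apart from Scgb3a1. The Dach1OE share is highest at 2 genes (50.7%), and all Control shares are under 1%.

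The 6 sinusoidal genes were used to choose the members, and their detection is given as a description. Stab2 was found in 71.7% of the 1857 members, Mrc1 in 45.1% and both in 37.0%. Gpm6a was found in 1.40%, Dnase1l3 in 0.969%, Il13ra2 in 0.754% and F8 (coagulation factor VIII) in 5.65%. None of the 6 was found in 344 members, 1 in 695 and 2 in 818. The rule caps the number at 2 and the sinusoidal gate requires at least 3, so the levels of these genes in either group (561 CPM of Stab2 in members and 920 in Dach1OE sinusoidal-gated cells, 4.56 and 352 of Gpm6a) are set by the choice of cells.

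Capillary genes gave a mixed picture. Car4 had 10.5 CPM in members, Meox2 3.73 and Aqp1 106, and arterial-gated Dach1OE cells had 26.2, 18.7 and 1385. Other capillary genes were higher in members than in these arterial-gated cells, with 810 against 409 for Gpihbp1, 613 against 82.0 for Cd300lg and 4470 against 1104 for Fabp4, which had 6040 in Dach1OE sinusoidal-gated cells. The cells are therefore called Scgb3a1-positive ECs by their rule. Across 6129 genes the summed profile of members had a Spearman rho of 0.966 with Dach1OE sinusoidal-gated cells, 0.935 with Control sinusoidal-gated cells, 0.918 with Scgb3a1-zero cells, 0.899 with Dach1OE metaphyseal-gated cells and 0.858 with arterial-gated cells. These points are genes of libraries that share a preparation, and the values describe likeness only.

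Of the 4 further markers proposed for these cells, Clca3a1 and Vsir set members apart from their own gate most clearly. The markers were chosen with earlier results of these data known, so their levels in members are a description. Clca3a1 had 909.7 CPM in members, 222 in Scgb3a1-zero cells and 767 in Dach1OE sinusoidal-gated cells. In Control it had 78.1 in the same gate and 353 in sinusoidal-gated cells. The log2 ratio of members was 2.03 (1.97 to 2.10) to Scgb3a1-zero cells and 0.25 (0.20 to 0.30) to Dach1OE sinusoidal-gated cells. Vsir, which encodes the immune checkpoint protein VISTA, had 225 in members, 89.0 in Scgb3a1-zero cells and 143 in Dach1OE sinusoidal-gated cells, and 44.9 and 98.3 in the matching Control groups. Its log2 ratios were 1.34 (1.23 to 1.45) and 0.66 (0.55 to 0.77).

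Gpihbp1 and Ccnd1 were shared with other Dach1OE ECs. Gpihbp1, which holds lipoprotein lipase on capillary walls, had 810 CPM in members and 776 in Dach1OE metaphyseal-gated cells. Ccnd1, which encodes cyclin D1, had 701 in members and 775 in metaphyseal-gated cells. At 1000 UMIs per cell the share with a Gpihbp1 UMI exceeded that of metaphyseal-gated cells by 3.32 points (-0.255 to 6.89), and the share with Ccnd1 by 2.09 points (-1.49 to 5.66), so neither interval excluded 0. Against Scgb3a1-zero cells the log2 ratio of Ccnd1 was 0.18 (0.13 to 0.23), and it became negative under 3 other ways of processing, so it is not read as a difference. Ccnd1 was 168 in the Control same gate.

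At 1000 UMIs per cell, which left out 33 members, 212 Scgb3a1-zero cells and 20 sinusoidal-gated cells of Dach1OE and 146 same-gate and 61 sinusoidal-gated cells of Control, Clca3a1 was detected in 58.1% of members (84.1% before thinning), 20.3% of Scgb3a1-zero cells (34.0%) and 46.2% of Dach1OE sinusoidal-gated cells (77.1%). In Control it was detected in 9.03% of the same gate (17.5%) and 30.0% of sinusoidal-gated cells (59.7%). Vsir was detected in 22.6% of members and in 10.5%, 12.6%, 6.88% and 10.4% of these groups in the same order, and before thinning in 50.7%, 23.0%, 35.8%, 13.0% and 27.8%. At least 2 of the 4 markers were found in 63.1% of members, 35.6% of Scgb3a1-zero cells and 41.2% of Dach1OE sinusoidal-gated cells. The Control shares were 10.7% of the same gate and 23.8% of sinusoidal-gated cells. As the markers were chosen with earlier results of these data known, these shares are a description.

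Dach1 was higher in members than in any other endothelial group of the library. It summed to 243 CPM in members, 192 in arterial-gated cells, 128 in Scgb3a1-zero cells, 124 in metaphyseal-gated cells and 96.1 in sinusoidal-gated cells of Dach1OE. Control levels were 7.88 in the same gate, 3.64 in sinusoidal-gated cells and 16.6 in arterial-gated cells. At 1000 UMIs a Dach1 UMI was found in 24.1% of members (52.6% before thinning) and 16.3% of Scgb3a1-zero cells (31.3% before), a difference of 7.80 points (5.51 to 10.2), which was 14.7 points (11.6 to 17.8) at 2000 UMIs. At 1000 UMIs it was 15.2 points (12.8 to 17.5) to sinusoidal-gated and 5.51 points (2.72 to 8.27) to arterial-gated cells. Control shares were 1.05% in the same gate and 0.395% in sinusoidal-gated cells.

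Read from Dach1, cells with its RNA had Scgb3a1 more often. Within the same gate of Dach1OE, 401 of 1088 cells with a Dach1 UMI at 1000 UMIs also had Scgb3a1 (36.9%), against 1294 of 4832 without (26.8%), a difference of 10.1 points (6.99 to 13.2). Among sinusoidal-gated cells it was 79 of 163 (48.5%) against 273 of 1659 (16.5%), a difference of 32.0 points (24.2 to 39.8). Gt(ROSA)26Sor, the transcript of the locus named for the transgene, had 218 CPM in members, 274 in arterial-gated and 89.0 in Dach1OE sinusoidal-gated cells, 13.6 in the Control same gate and 15.7 in Control sinusoidal-gated cells. Aplnr, whose promoter drives the Cre, had 253 in members, 412 in Scgb3a1-zero, 334 in sinusoidal-gated, 901 in metaphyseal-gated and 108 in arterial-gated cells. These Aplnr levels were measured at day 30, well after Tamoxifen was given.

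Set against the 3607 Scgb3a1-zero cells of their own gate and library, members had higher levels of 10 of 13 sinusoidal genes outside the gate. They had lower levels of 7 of 13 type R and 5 of 5 blood cell genes. Of the latter, Pf4 and Ppbp were no longer lower without megakaryocyte-gene cells, which were picked in part by these 2 genes. A gene was called when its level differed at least 2-fold and its mean over both groups was at least 25 CPM. Of 6283 genes, 146 (2.32%) were higher, Scgb3a1 and genes of the rule included, and 188 (2.99%) were lower in members. Of these calls 43.7% were higher, and 30.4% were when the mean over cells replaced the summed level. In place of 334 calls in all there were 168 with at least 5 of the 7 endothelial genes and 554 without Scrublet-marked cells. The 12 genes with the highest ratios beside Scgb3a1, ranked by the lower bound of the interval, were Fgf23, Rdh16, Ubd, Cxcl9, Ctsl, Depp1, Ackr1, Cdkl1, Clca3a1, Fmo1, Madcam1 and Rgs4.

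Among these genes Fgf23, the phosphate hormone best known from osteocytes, had 46.1 CPM in members and 5.12 in Scgb3a1-zero cells (log2 ratio 3.17, 2.79 to 3.57). Ubd, a ubiquitin-like modifier, had 812 and 133 (2.61, 2.53 to 2.68), and the chemokine Cxcl9 had 114 and 20.7 (2.46, 2.26 to 2.66). Ctsl, the lysosomal protease cathepsin L, had 2238 and 489 (2.19, 2.15 to 2.24). Ackr1, a chemokine-binding receptor of venules, had 583 and 138 (2.08, 2.003 to 2.16). Dach1OE sinusoidal-gated cells had close levels of all 5, at 51.5 for Fgf23, 735 for Ubd, 103 for Cxcl9, 2009 for Ctsl and 620 for Ackr1.

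Of 13 sinusoidal genes measured outside the gate, 10 were at least 2-fold higher in members than in Scgb3a1-zero cells (Flt4, Gpr182, Vcam1, Adamts5, Rgs4, Ackr1, Ctsl, Lrg1, Tfpi and Cyp4b1), with a list median of 1.49 on the log2 scale against 0.01 over all genes tested. Lrg1, a secreted glycoprotein, had 2195 in members and 620 in Scgb3a1-zero cells. Flt4, the VEGF-C receptor and upstream neighbour of Scgb3a1, had 518 and 213. Cnot6 on the other side had 219 and 166. Maf, a transcription factor of sinusoidal endothelium, had 629 and 203 and was the one called gene among 13 endothelial transcription factors.

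Smaller parts of several other lists were called, where 2.32% of all genes were higher and 2.99% were lower. Against Dach1OE sinusoidal-gated cells Igfbp5 was called higher, but no adhesion, immune checkpoint, Notch, capillary and lipid or dissociation-response gene was. Selp and Cd36 were lower there. Against Scgb3a1-zero cells, Icam1, Vcam1, Sele and Madcam1 of 9 adhesion genes were higher and Cd44 was lower. Madcam1, the ligand of a gut-homing integrin of lymphocytes, had 134 in members, 33.3 in Scgb3a1-zero cells and 1.72 in the Control same gate. Of 5 immune checkpoint genes Vsir and Nectin2 were higher and Cd276 was lower. Of 6 Notch pathway genes the ligand Dll4 (189 against 90.2) and the target Hes1 (250 against 114) were higher. Igfbp5 and Igfbp4, which bind insulin-like growth factors, were higher and Igfbp3 was lower (15.3 against 52.6) among 8 genes of that pathway. Of 8 capillary and lipid genes Fabp4 and Cd300lg were higher and Aqp1 was lower. Of 9 dissociation-response genes Junb, Hspa1a and Hspa1b were higher, and the part of cell handling was not tested.

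Genes of other vessel types were lower in part. Of 13 type R capillary genes 7 were lower (Cav1, Cdh13, Tppp3, Capg, Bcam, Crip1 and S100a6) and none was higher, with a list median of -1.02. Cav1, which forms caveolae, had 87.9 in members, 290 in Scgb3a1-zero cells and 1363 in arterial-gated cells. Of 10 arterial genes outside the gate Gja4, Unc5b, Ltbp4 and Igfbp3 were lower and Dll4 was higher, while the summed level of the whole list was higher in members (2113 against 1655). Ly6a, an arterial gene of this list, was not called. At 1000 UMIs it was detected in 68.9% of members, 47.2% of Scgb3a1-zero, 44.2% of sinusoidal-gated and 64.7% of arterial-gated Dach1OE cells. Of 10 type H genes Apln, Cd34 and Emp1 were lower and Btnl9 was higher. Of 10 proliferation genes Top2a, Ccnb1 and Cenpf were lower and none was higher. Cyclin and inhibitor genes gave 1 call in 9, a lower Cdkn2d.

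The lowest ratios belonged largely to megakaryocyte genes, which were present in part of the Scgb3a1-zero cells. Pf4 had 73.4 in members and 1097 in Scgb3a1-zero cells. The 6 megakaryocyte genes Pf4, Ppbp, Itga2b, Gp1ba, Gp9 and Treml1 summed to 179 in members, 2467 in Scgb3a1-zero cells and 5603 in the Control same gate, and at least 2 of them were found in 5.12%, 8.62% and 9.78% of these cells. Without such cells 254 genes were called in place of 334. The log2 ratio of Pf4 was then 0.48 (0.22 to 0.75) and that of Ppbp 0.088 (-0.19 to 0.36), whose interval holds 0. Both genes served to pick the cells left out, so these ratios are set in part by that choice. Fgf23, Rdh16, Ubd and Cxcl9 still had the highest ratios, at 3.07, 2.79, 2.52 and 2.48. Among the lowest were then Acta1, Gap43, Pcp4l1, Col18a1, Rgs5, Cdh13, Ace, Col15a1, Tagln, Aspn and Cav1. Summed stromal and mural marker genes were also lower in members than in Scgb3a1-zero cells (16190.5 against 27166 and 554 against 1500), and their part in the calls was not tested.

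Against sinusoidal-gated cells of the same library, members differed in far fewer genes. Of 6146 genes 14 (0.228%), Scgb3a1 included, were higher and 72 (1.17%) were lower, and 5 of the 72 were sinusoidal genes of the gate itself. With cells of 2000 to 4000 UMIs 170 genes were called in place of 86, and 31.2% of these calls were higher in place of 16.3%. Vwf, von Willebrand factor, had 224 in members and 82.1 in sinusoidal-gated cells (log2 ratio 1.45, 1.32 to 1.58). Igfbp5 had 3754 and 1791 (1.07, 1.04 to 1.10), Dach1 243 and 96.1 (1.34, 1.21 to 1.46), the semaphorin Sema7a 162 and 61.8 (1.39, 1.24 to 1.55) and the chemokine scavenger Ackr3 111 and 45.6 (1.28, 1.10 to 1.46). Vwf, Ackr3 and Sema7a were shared with other Dach1OE cells, with 198 of Vwf, 94.7 of Ackr3 and 224 of Sema7a in Scgb3a1-zero cells and 414, 164 and 1049.6 in arterial-gated cells. Of the other genes that were higher, Prg2 belongs to granulocytes and Bglap and Bglap2 to osteoblasts.

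Several genes of sinusoidal-gated cells that are not in the rule were lower in members. The rule caps members at 2 of the 6 sinusoidal genes and the sinusoidal gate requires at least 3. Genes that go with these 6 can therefore be lower by the choice of cells, and its part was not tested. Mmrn1, multimerin 1, had 5.80 in members and 137 in Dach1OE sinusoidal-gated cells (log2 ratio -4.56, -5.04 to -4.12). Gda, guanine deaminase, had 8.28 and 100.1 (-3.60), and the potassium channel gene Kcnj8 had 25.3 and 192 (-2.92). Of 14 sinusoidal genes outside the gate Adgrg6, Cxadr, Tfpi and Chst2 were lower and none was higher. Cd36, a fatty acid carrier, had 137 and 541, and the selectin gene Selp 120 and 287. Sinusoidal genes spread over a range, from log2 ratios between -0.09 and 0.16 for Ackr1, Rgs4, Gpr182, Lrg1 and Ctsl, through -0.44 for Flt4, -0.75 for Cyp4b1 and -0.85 for Adamts5, to -2.33 for Adgrg6, with a list median of -0.61.

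**Figure D4:**
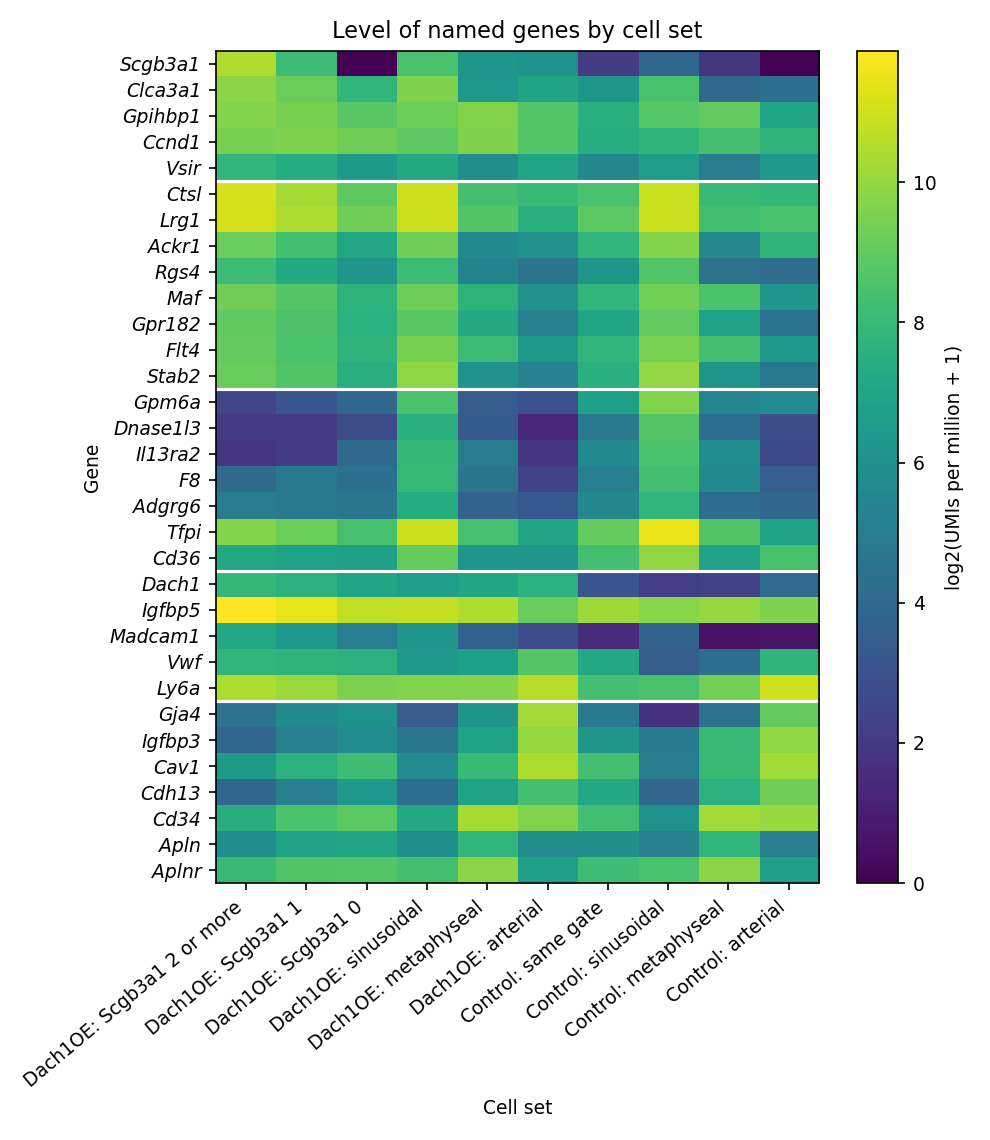
Level of named genes, as log2(CPM + 1), in 10 endothelial cell sets. The first column holds the members. White lines separate markers, sinusoidal genes largely shared, sinusoidal genes that are lower, genes raised in Dach1OE, and arterial, type R and type H genes. Members resemble Dach1OE sinusoidal-gated cells in Ctsl (2238 against 2009) and differ from them in Dach1 (243 against 96.1). In the shared block Flt4 (518 against 701) and Stab2 were lower in members. Stab2, Gpm6a (4.56 against 352), Dnase1l3, Il13ra2 and F8 are genes of the rule.

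A comparison of members with Control members could not be made, because Control held 1. In its place, members were set against 2 Control groups, the 1963 Control cells of the same gate and the 5633 Control sinusoidal-gated cells. Against the same gate, 283 of 6354 genes (4.45%) were higher and 404 (6.36%) were lower in members. Of these calls 41.2% were higher, and 27.8% were when the mean over cells was used. With at least 5 of the 7 endothelial genes 382 genes were called in place of 687, 32.5% of them higher. The median of all genes was 0.04 on the log2 scale, and 0.11 under TMM scaling. Clca3a1, Gpihbp1, Ccnd1 and Vsir, 8 of 13 sinusoidal genes outside the gate, and 5 of 6 Notch genes (Notch1, Notch4, Dll4, Hes1 and Nrarp) were higher. Against Control sinusoidal-gated cells 1 of 7 Notch genes was higher (Nrarp) and 1 was lower (Jag1). None of 6 was called against Dach1OE sinusoidal-gated cells. Against the same gate the 7 endothelial genes of the rule also summed higher in members (7884 against 4398, with Cdh5, Kdr and Plvap called). Dissociation-response genes did too (2715 against 1607, with Hspa1a and Hspa1b called). Stromal (16190.5 against 27195) and mural markers (554 against 1533) summed lower. Median depth was 2910 UMIs in members and 2039 in the Control gate. The part of each was not tested. Madcam1, Rdh16, Dach1, Gt(ROSA)26Sor, Clca3a1, Ppp1r9a, Ubd and Ctsl led the list, with log2 ratios from 6.29 (5.48 to 7.25) for Madcam1 to 2.67 for Ctsl. Of 11 arterial genes outside the gate Sox17, Dll4, Notch4 and Ly6a were higher and Fbln5, Efnb2, Ltbp4 and Igfbp3 were lower. Lower were also 9 of 14 type R genes, the megakaryocyte genes and the lymphatic genes Lyve1, Mmrn1 and Ccl21a. Lymphatic markers summed to 18.6 in members and 349 in the Control gate, of which Mmrn1, also found in sinusoidal-gated cells, gave 175, and their part was not tested.

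Against Control sinusoidal-gated cells, 83 of 6162 genes (1.35%) were higher and 158 (2.56%) were lower. Dissociation-response genes (2715 against 1858, with Fos and Nr4a1 called), stromal (16190.5 against 10891) and cartilage markers (13058 against 9529) summed higher in members. Their part was not tested. Dach1 had 243 in members and 3.64 in the Control cells (log2 ratio 6.06, 5.74 to 6.40), Vwf 224 and 10.5 (4.42, 4.22 to 4.62), Ackr3 111 and 8.78 (3.66, 3.43 to 3.89), Madcam1 134 and 12.7 (3.41, 3.21 to 3.60) and Igfbp5 3754 and 878 (2.10, 2.07 to 2.12). Of 10 type R genes 6 were higher (Cav1, Sparcl1, Mgll, Pdlim1, Bcam and Ly6c1), of which Cav1 and Bcam were lower in the comparison with Scgb3a1-zero cells. Of 14 sinusoidal genes outside the gate 7 were lower and none was higher, and the same limit from the choice of cells applies. Clca3a1, Ccnd1 and Vsir were at least 2-fold higher and Gpihbp1 was not (441 in Control, 0.88 on the log2 scale). These 4 comparisons share the members, so their calls are not independent of each other.

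Across the Dach1OE same gate the levels of several genes went up or down with Scgb3a1. Cells thinned to 1000 UMIs were grouped by Scgb3a1 UMIs, with 4225 cells at 0, 775 at 1, 650 at 2 or 3 and 270 at 4 or more. Levels use all UMIs of these cells. The class at 0 held 3395 Scgb3a1-zero cells, and its other cells had lost their Scgb3a1 UMIs in thinning. Clca3a1 rose from 298 through 912 to 1169 CPM (1123 to 1218), and had 1274 (1194 to 1358) in the last class, where the intervals overlap. Dach1 had 137 (132 to 143), 260 (241 to 280), 265 (243 to 289) and 391 (347 to 439), so the middle classes did not differ beyond their intervals. Vsir rose from 101.4 through 229 to 289 (266 to 314), and had 311 (272 to 354) in the last class, again with overlapping intervals. Ccnd1 had 617, 788, 834 and 815, and is not read as a difference for the reason given above. Cd34 declined from 414 to 245 and 135 (120 to 152), and had 164 (136 to 196) in the last class, where the intervals overlap. For Clca3a1 and Vsir the largest step lay between the classes at 0 and 1. Aplnr declined from 381 to 229, and Stab2 (203, 604, 744 and 711) and Madcam1 (44.3, 125, 193 and 162) were highest in the third class. Genes of other cells moved with the classes, with 15444, 6264.5, 3414 and 4218 for Col1a1 and 869, 102, 68.9 and 53.1 for Pf4, and their part was not tested.

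**Figure D5:**
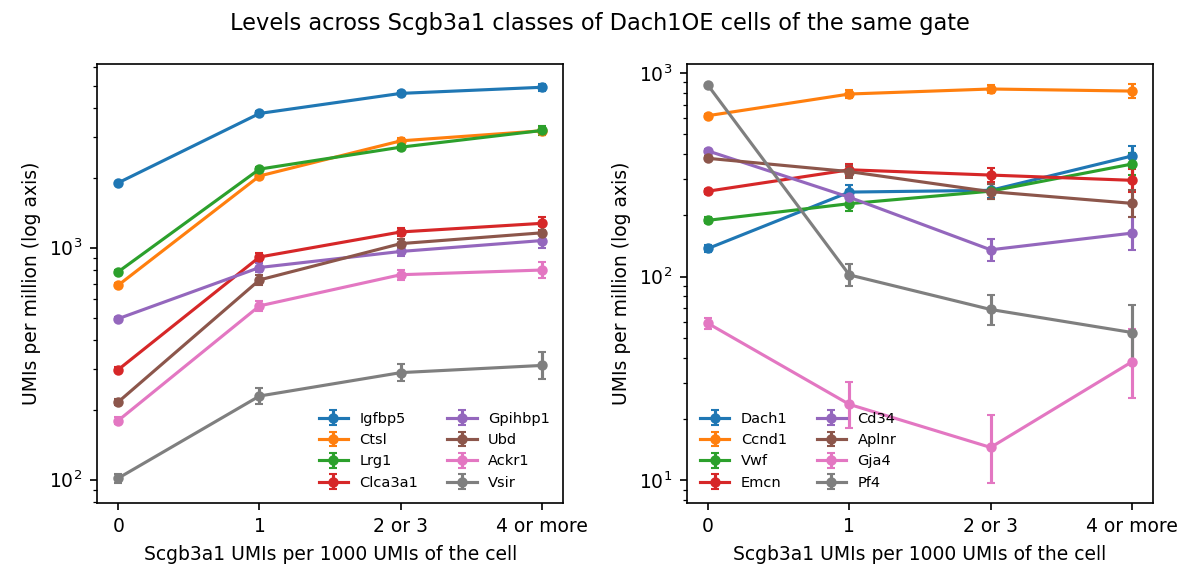
Levels in CPM (log axis, 95% Poisson intervals) in Dach1OE cells of the same gate grouped by Scgb3a1 UMIs after thinning to 1000 UMIs, in 2 panels of 8 genes. Ctsl rises over all 4 classes, Clca3a1 rises up to the third, and Pf4 falls from 869 to 53.1.

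Genes that set members apart in their gate were also higher in Scgb3a1-positive cells of other gates. These cells were not members, but they came from the same library and were split on Scgb3a1 too. The counts are therefore a description and no independent check. Without the genes of the rule, Xist and Y-linked genes, 143 genes were at least 2-fold higher and 187 lower in members than in Scgb3a1-zero cells. Of the 143, 120 were higher in the 448 Dach1OE sinusoidal-gated cells with at least 2 Scgb3a1 UMIs than in the 1214 with none, where 45.8% of all genes were higher. It was 138 of 143 among metaphyseal-gated cells (71 against 1119 cells, 47.3% of all genes) and 139 of 143 among arterial-gated cells (68 against 1369 cells, 51.8%). Of the 187 lower genes 164, 145 and 126 were lower there, where 54.2%, 52.7% and 48.2% of all genes were. In the 68 arterial-gated cells the platelet genes went against this, with 601 CPM of Ppbp against 79.1 and 237 of Pf4 against 56.7, and Stab2 had 302 against 18.9. In the 71 metaphyseal-gated cells Stab2 had 236 against 47.9 and Lrg1 1300 against 307, while Gpm6a, with 1 UMI in the former, was not higher. The part of such genes of other cells was not tested. Scgb3a1-positive cells had more UMIs in each gate (medians of 4889 against 2911, 5311 against 3385 and 4131.5 against 3115), and the part of depth was not tested.

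The ratio of Dach1 between cells with and without Scgb3a1 differed by gate. In the sinusoidal gate of Dach1OE Dach1 had 201 CPM against 34.8 (log2 ratio 2.53, 2.27 to 2.80), Igfbp5 2949 against 1191 and Gpm6a 182 against 460. Among metaphyseal-gated cells Dach1 had 173 against 114 (0.61, 0.24 to 0.96). Among arterial-gated cells it had 226 against 185 (0.29, -0.06 to 0.62), with an interval that holds 0. In Control sinusoidal-gated cells the minimum was 1 Scgb3a1 UMI, which 308 cells had. With Scgb3a1, 109 of the 143 genes were higher and 159 of the 187 were lower than without (45.7% and 54.3% of all genes were). The cells with Scgb3a1 had a median of 4122.5 UMIs against 3006, and the part of depth was not tested. Fgf23 had 63.2 against 25.4 CPM in these Control cells, while Clca3a1 had 388 against 351 and Igfbp5 had 576 against 900.

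Female and male cells of the pools were compared for each call, and cells without an assigned sex were left out. Against Scgb3a1-zero cells 143 of 143 higher genes and 185 of 187 lower genes had the same sign in either sex, and 128 and 104 were past 2-fold in both. Against Dach1OE sinusoidal-gated cells 12 of 13 higher and 67 of 67 lower genes had the same sign, but 4 and 44 were past 2-fold in both. Clca3a1 had 950.2 in female and 795 in male members, against 221 and 200.2 in Scgb3a1-zero cells. Dach1 had 252 and 251 against 119.5 and 118.6. Sizes differed between the mice for some genes: Madcam1 had 186 in female and 90.9 in male members, Ctsl 2750 and 1793, and Igfbp5 2989 and 4257. Each sex is 1 animal per library, so these are differences between 2 mice.

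The cells on either side of the limits of the rule are described by their levels. Members with 2 sinusoidal genes (818 cells) had 1127 CPM of Clca3a1, 252 of Dach1 and 2748 of Ctsl. The 253 Scgb3a1-positive cells with 3 sinusoidal genes had 1196, 241 and 2954. At the Scgb3a1 limit, the 450 members with exactly 2 UMIs had 665 of Clca3a1, 623 of Ccnd1 and 1553 of Ctsl, and the 730 cells with exactly 1 UMI had 592, 768 and 1220.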

How the data were processed

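The deposited tables hold counts of UMIs per cell and gene, which the authors made with the BD Rhapsody pipeline (version 1.11, mm10, intronic reads counted) and corrected for errors (RSEC). Per the study's methods, each library pooled 2 mice. Cells with 500 to 6000 genes and under 25% mitochondrial UMIs were kept. UMIs were summed per group and scaled by their total to CPM. With 1 library per genotype no test was run. Levels carry exact Poisson, ratios exact conditional binomial, shares Clopper-Pearson and differences of shares Newcombe intervals (95%, scipy 1.17.1). The share that a count of 0 allows is 3 counts of the total. Genes with a mean of at least 25 CPM in a comparison were called at 2-fold. Doublets were marked with Scrublet (scanpy 1.11.5) and kept, except in one alternative. The calling step was tested on simulated data. The members and gene lists were chosen with earlier results of these data known. Named genes are the markers, genes of the lists past 2-fold with up to 4 more per list, and the 12 highest and 12 lowest of each comparison by the interval bound nearest to 0, without genes of the rule, Xist and Y-linked genes. The comparison with Control members could not be made with 1 cell; both Control groups, the calls against sinusoidal-gated Dach1OE cells, the range of 2000 to 4000 UMIs, the megakaryocyte gene list and the classes by Dach1, Scgb3a1 and sinusoidal genes were added after the data had been seen. Scaling by TMM (edgeR 4.0.16) and DESeq2 1.42.0 size factors, raw UMIs, other filters and either sex were tried as alternatives.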

Additional observations from a re-analysis of the deposited data

Results flagged for a closer look

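Acta1, a muscle actin gene, had a log2 ratio of members to Scgb3a1-zero cells of -6.48 in female cells and of 0.79 in male cells, where the interval of -2.11 to 3.69 holds 0. It had 116 CPM in female Scgb3a1-zero cells and 0.847 in male ones, and the difference between the sexes was not tested.

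Barcodes outside the cell filter of Dach1OE had 25.9 CPM of Scgb3a1, against 0.992 in Control. Of 2711 such barcodes 15 had at least 2 Scgb3a1 UMIs, and 3 of the 2405 with under 3 endothelial genes did. Dach1OE cells with both Ptprc and at least 3 endothelial genes had 96.2 CPM, where 22 of 142 cells (15.5%) had at least 2 Scgb3a1 UMIs, against 0 of 126 in Control, which allows a share of up to 2.38%. Of the Dach1OE cells with Ptprc and under 3 endothelial genes, 0 of 694 had at least 2, which allows a share of up to 0.432%.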

How the results depend on the processing

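The planned comparison with Control members could not be made with 1 cell. No paired analysis was possible because each genotype has 1 library and the labels carry no replicate numbers. Of 83 alternative values of the main results 66 stayed close and 17 moved, up or down. Most of them were counts of called genes, which cannot change sign, and the member share rests on the gene of the rule. The Dach1 difference stayed positive in every alternative. The member share difference of 15.9 points became 29.9 within the same gate, 10.4 for cells thinned to 1000 UMIs, 22.0 with a minimum of 1 and 12.1 with 3 Scgb3a1 UMIs, 17.0 under 10% mitochondrial UMIs and 17.6 with 5 endothelial genes. The Dach1 difference of 7.80 points became 14.7 at 2000 UMIs, 11.8 in female and 10.5 in male cells. Without a filter on low genes 7453, 6130, 8438 and 8126 genes passed 2-fold against Scgb3a1-zero cells, Dach1OE sinusoidal-gated cells, the Control gate and Control sinusoidal-gated cells, in place of 334, 86, 687 and 241. With 5 endothelial genes 168 passed against Scgb3a1-zero cells and 382 against the Control gate. Without Scrublet-marked cells 554 passed against Scgb3a1-zero cells, and with 2000 to 4000 UMIs 170 passed against Dach1OE sinusoidal-gated cells. The cause was not tested for any of these.

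Among named genes 819 alternative values stayed close, 560 moved and 16 reversed. Against Scgb3a1-zero cells Ccnd1 was -0.044 and Vwf -0.11 as a mean over cells, -0.22 and -0.12 with 5 endothelial genes, and -0.15 and -0.0013 at 2000 to 4000 UMIs. With a minimum of 1 UMI Ctsl was -0.027 and Lrg1 -0.0023 against Dach1OE sinusoidal-gated cells. In male cells Ctsl was -0.14 and Lrg1 -0.079 against Control sinusoidal-gated cells, and Acta1 was 0.79 against Scgb3a1-zero cells. Without megakaryocyte-gene cells Gp1ba was 0.34, Pf4 0.48, Ppbp 0.088, Slc6a4 0.014 and Clec1b 1.07, and Gp1ba, Pf4 and Ppbp served to pick the cells left out.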
